A study of Mus musculus with 9 samples.

Results

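C2C12 myoblasts that had received valine and then palmitic acid were compared with starved C2C12 myoblasts across all genes, with most attention to genes that valine alone did not change. C2C12 is a mouse myoblast line, a culture of muscle precursors that leave the cell cycle and fuse into myotubes when growth factors are withdrawn. The comparison takes 6 of the 9 sequenced libraries, namely Val+PA 1 to 3 and Control 1 to 3, and Valine 1 to 3 serve as the reference for what valine alone did. All wells were grown in DMEM/F12 with fetal bovine serum, plated, and moved to the reduced-serum medium OPTI-MEM. Control wells were harvested once they had starved for 12 h. Val+PA wells then had valine at 0.45 mM for 24 h, with palmitic acid at 75 µM for 12 h, and Valine wells had valine at 0.45 mM for 36 h. Whether valine stayed in the medium during the palmitic acid step is not given in the sources used here. Each group was a single six-well plate and 3 of its wells, picked at random, were sequenced, so the p-values below cover well-to-well spread within 1 plate and nothing between plates. Control was harvested earlier than both treated groups, and no untreated later well was sequenced among these 9 libraries, so treatment, time in low serum and plate cannot be told apart in any comparison with Control.

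Palmitic acid is the main saturated fatty acid of animal fat. In muscle it is bound to coenzyme A and then burned in mitochondria, stored as triglyceride in lipid droplets or used to build ceramides. Fatty acids also act as ligands of the PPAR nuclear receptors, whose known targets include Angptl4, Plin2, Plin4, Pdk4, Cpt1a and the acyl-CoA thioesterases, and a surplus of palmitate is known for stress of the endoplasmic reticulum, NF-kappaB signalling and prostaglandin synthesis. The title of the study names intramuscular fat, autophagy and the metabolism of fatty acids as its subjects.

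Libraries held 26750226 to 35976589 counts, and 1 count was worth 0.0271 to 0.0403 CPM, the unit of all levels below (counts brought to a common library size with TMM factors). Expression of 10 fixed myoblast markers was looked at, and all 10 were measured. Their summed level was 3070 to 3270 CPM in Control, 4260 to 4450 CPM in Valine and 4050 to 5960 CPM in Val+PA. A sum is weighted to its most abundant members. Against Control, Val+PA had 4 markers higher and 1 lower at an edgeR adjusted p below 0.05, and 5 that were neither (median log2 change 0.18). These are 40% and 10%, beside 20.4% higher and 18.8% lower over all genes tested. Valine also had 4 markers higher and 1 lower than Control (median 0.26). Myod1 itself, the master regulator of the muscle lineage, reached only 8.29 CPM ± 1.16 (SD, n = 3) in Control wells and 8.995 CPM ± 2.43 (SD, n = 3) in Val+PA wells. Val+PA 2 and, less far, Control 3 stood apart from the other libraries on the second principal component, at -58.8 and -30.0 against -10.7 to 23.0 for the rest. In Val+PA 2 the log2 level also climbed by 0.427 for each 10 percentage points of a gene's GC content, against -0.158 to 0.102 in the other 8 libraries. Control and Val+PA wells were more spread than Valine wells, with a median SD of log2 CPM of 0.219, 0.256 and 0.0999. Values without those libraries are given beside the main counts and beside several of the genes in which they were extreme.

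Val+PA cells differed from starved cells in a large part of the transcriptome. Of 18415 genes tested, 3748 rose (20.4%) and 3471 fell (18.8%), which is 7219 in all (39.2%) by the quasi-likelihood test of edgeR at an adjusted p below 0.05 (Benjamini-Hochberg). The change reached 2-fold in 1678 genes that rose and 1207 that fell, and the 3 Val+PA values did not overlap the 3 Control values in 8386 genes (45.5%). Valine against Control called 7718 genes (41.9%). That comparison uses the same 3 Control libraries, so values of each comparison are set side by side below and no likeness between them is read as a result. Both comparisons called 3042 genes higher, with a median log2 change of 1.00 in Val+PA and 1.01 in Valine, and 2821 genes lower, with medians of -0.83 and -0.86. A single gene, Ptgs2, was called in opposite directions. The direct test of Val+PA against Valine called 0 genes (0%) with edgeR, where the smallest adjusted p was 0.168 and 2428 genes had an unadjusted p below 0.05; limma-voom also called 0 and DESeq2 called 186. Without Control 3 and Val+PA 2 the edgeR test called 604 genes.

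**Figure D1:**
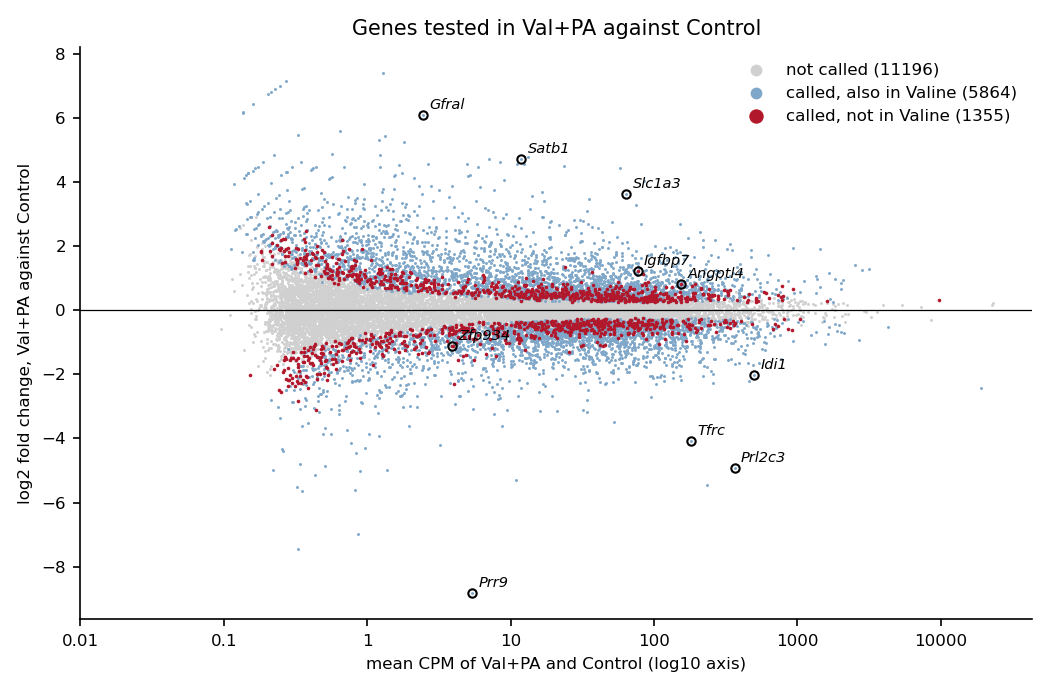
Each point is 1 of 18415 genes, with its mean level in CPM on a log10 axis and its log2 fold change of Val+PA against Control on the vertical axis. The 1355 genes called in Val+PA and not in Valine lie nearer to 0 than many of the 5864 genes called in both, and 11196 genes were not called.

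The genes with the largest changes against Control are given first, with their Valine levels beside them. Satb1, a chromatin organiser, rose from 0.858 CPM ± 0.0808 (SD, n = 3) in Control to 22.8 CPM ± 0.963 (SD, n = 3) in Val+PA, beside 22.2 CPM in Valine. The carbonic anhydrase gene Car6 went from 0.930 to 25.6 CPM and the matrix gene Cilp from 0.517 to 13.6 CPM, beside 23.4 and 8.32 CPM in Valine. Ranbp3l rose from 0.638 to 16.2 CPM, beside 23.0 CPM in Valine. Gfral, the receptor gene for GDF15, a hormone of stressed tissue, had 0.0718 CPM in Control, the worth of a few counts, and 4.85 CPM in Val+PA. Among the falls, Tfrc, the transferrin receptor that brings iron into cells, went from 343 CPM ± 68.0 (SD, n = 3) in Control to 20.2 CPM ± 3.24 (SD, n = 3) in Val+PA, beside 23.9 CPM in Valine. The placental hormone relatives Prl2c2 and Prl2c3 fell from 457 and 707 CPM to 10.4 and 23.1 CPM; they are near-identical copies, so how reads were shared between them is uncertain. Nptx1 fell from 16.1 to 1.34 CPM, and Prr9 went from 10.8 CPM to almost no counts in Val+PA.

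Genes called in Val+PA against Control and not in Valine against Control, written below as called in Val+PA and not in Valine, numbered 1355, with 705 higher (3.83% of genes tested) and 650 lower (3.53%). The wording gives the side of a threshold and not a tested difference between the treated groups. Most of them leaned the same way in Valine, 683 of the 705 and 639 of the 650, without passing the test there. The median log2 change of the 705 was 0.58 in Val+PA and 0.28 in Valine, and that of the 650 was -0.62 and -0.32. The Valine change lay within 0.1 of 0 on the log2 scale for only 62 and 33 of them. Val+PA and Valine values did not overlap for 316 of the 705 and 275 of the 650, and the direct test gave an unadjusted p below 0.05 for 204 and 153. Over all genes tested the shares were 24.6% and 13.2%, and the members were chosen on comparisons that share these Val+PA and Valine libraries, so nothing is read from the counts. The cut falls among like values: Ccl8, Ift43 and Wnt6 entered the set with an edgeR adjusted p of 0.0503 in Valine, while Spred2 and 9330160F10Rik stayed out at 0.0499 and Naa50 at 0.0497. Protein-coding genes made up 83.7% of the 705 and 73.4% of the 650, beside 72.7% of all genes tested.

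**Figure D2:**
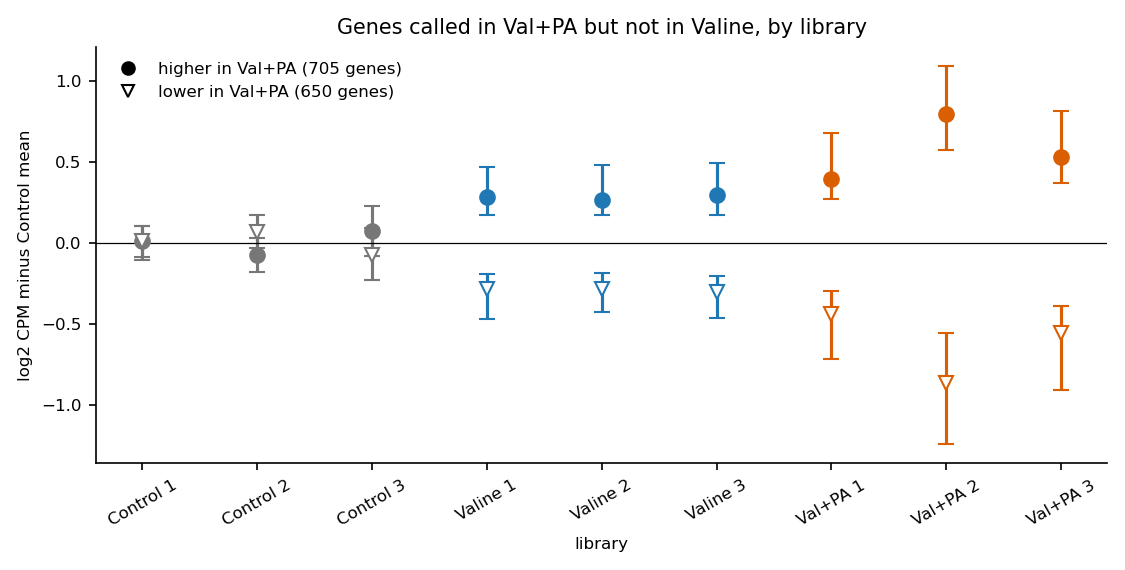
For each of the 9 libraries, points give the median and bars the quartiles of log2 CPM minus the Control mean, over the 705 genes called higher and the 650 called lower in Val+PA and not in Valine. Valine libraries sit at 0.267 to 0.295 and -0.306 to -0.282, while Val+PA 2 reaches 0.796 and -0.866, farther out than Val+PA 1 and Val+PA 3.

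These 1355 genes did not move evenly across the Val+PA wells. The median deviation from the Control mean of the genes called higher was 0.395 in Val+PA 1, 0.796 in Val+PA 2 and 0.529 in Val+PA 3, and that of the genes called lower was -0.442, -0.866 and -0.556. Val+PA 2 held the highest of the 3 Val+PA values for 523 of the 705 (74.2%, beside 42.5% of all genes tested) and the lowest for 431 of the 650 (66.3%, beside 39.4%). Median GC content was 53.7% for the genes called higher and 44.6% for those called lower, beside 48.9% over all genes tested; the part of GC content in the calls was not tested beyond the fit with the GC trend removed. Without Val+PA 2 the counts were 427 and 374. Of the 1355, 186 higher and 166 lower genes kept their call against Control, at the 0.05 threshold, in the 19 other fits planned and also with the GC trend of each library removed. The stricter threshold of 0.01 is not among these. That count does not ask whether a gene stayed uncalled in Valine. With the GC trend removed 685 of the 705 and 636 of the 650 kept the Val+PA call, but only 369 and 326 of them also stayed uncalled in Valine. Without Control 3 and Val+PA 2 only 226 and 180 met both conditions.

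The genes described next are the 54 named genes, 35 higher and 19 lower, that kept their Val+PA call and stayed uncalled in Valine in every other fit at the 0.05 threshold; they were chosen after their values were seen. At a threshold of 0.01 the Val+PA call held for 44 of them. Because the calls themselves chose these genes, their distance from Control and from Valine is a description and no support: 0 of the 54 overlapped Control (45.5% of all genes tested did not overlap), and Car12, Syt7, Syngr3, Relb, Higd1a, Pcsk6, Sec61b and Ubqln2 overlapped Valine. With all 9 libraries none of them was called by edgeR between Val+PA and Valine (0 genes; DESeq2 called 186 genes over the whole table), and 30 of the 35 and 11 of the 19 had an unadjusted p below 0.05, beside 13.2% of all genes tested. Without Control 3 and Val+PA 2, 11 and 4 were called.

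Angptl4, which encodes a secreted inhibitor of lipoprotein lipase and is a known PPAR target, was the single fixed lipid gene that was called in Val+PA and not in Valine. It lies at chr17:33773750-33781830 on the minus strand of GRCm38. It measured 131, 115 and 91.99 CPM in Control 1 to 3, 110, 106 and 114 CPM in Valine and 204, 225 and 163 CPM in Val+PA. All 3 Val+PA wells lay above all 6 others, which overlapped one another. The rise over Control was 1.75-fold (log2 change 0.81, SE 0.144, edgeR adjusted p = 0.00086), with -0.04 for Valine against Control (adjusted p = 0.850). Against Valine the log2 difference was 0.85, with an unadjusted edgeR p of 7.88e-05 and an adjusted p of 0.168; without Control 3 and Val+PA 2 it was 0.74 with an adjusted p of 0.000496.

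Areg, which encodes the epidermal growth factor receptor ligand amphiregulin, was also higher in Val+PA wells. It lies at chr5:91139599-91148432 on the plus strand of GRCm38. Its levels were 48.1, 48.4 and 54.6 CPM in Control, 46.6, 47.3 and 47.4 CPM in Valine and 72.5, 76.6 and 66.9 CPM in Val+PA. Every Val+PA value was above the highest value of the other groups. The log2 change over Control was 0.52 (SE 0.099, edgeR adjusted p = 0.0014), and against Valine it was 0.61 with an adjusted p of 0.168, or 0.56 and 0.000503 without Control 3 and Val+PA 2.

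Acot1, Faah and Scd4, other genes of lipid handling, were measured at lower levels than Angptl4. Acot1, a cytosolic thioesterase that releases fatty acids from coenzyme A, was at 2.08, 1.55 and 2.34 CPM in Control, 2.99, 2.04 and 2.49 CPM in Valine and 3.18, 5.00 and 3.28 CPM in Val+PA. Faah, which hydrolyses fatty acid amides such as anandamide, was at 1.28, 1.82 and 2.05 CPM in Control, 2.17, 2.01 and 1.91 CPM in Valine and 2.93, 4.10 and 3.06 CPM in Val+PA. In both genes each Val+PA well exceeded each other well and Val+PA 2 was highest; the log2 rises were 0.94 for Acot1 and 0.97 for Faah, or 0.71 and 0.81 without Val+PA 2. In the other direction, Scd4, a member of the stearoyl-CoA desaturase family, which puts a double bond into palmitoyl and stearoyl chains, fell from 1.92, 1.76 and 1.81 CPM in Control to 0.706, 0.705 and 0.711 CPM in Val+PA, with 1.41, 1.57 and 0.967 CPM between them in Valine. Its log2 change was -1.37 (SE 0.243, edgeR adjusted p = 0.00082). Its relative Scd1 rose in both comparisons, from 1423 CPM ± 67.9 (SD, n = 3) in Control to 2587 CPM in Valine and 2728 CPM ± 76.3 (SD, n = 3) in Val+PA. Mboat1, an acyltransferase of phospholipid remodelling, fell by 0.46 on the log2 scale.

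Several of the 54 encode receptors or surface proteins, and Relb is given with them as a partner of Cd40. Cd14, the co-receptor through which innate immune cells sense lipopolysaccharide, was at 11.03, 9.996 and 11.5 CPM in Control, 11.2, 9.97 and 9.85 CPM in Valine and 13.5, 19.5 and 16.5 CPM in Val+PA. Cd40, a receptor of the tumour necrosis factor family, was at 5.42, 5.38 and 5.08 CPM in Control, 4.48, 5.55 and 5.78 CPM in Valine and 7.98, 9.89 and 6.99 CPM in Val+PA. Their log2 rises were 0.61 and 0.65, while Valine stood at -0.07 and -0.01 from Control. Relb, a subunit of the noncanonical NF-kappaB pathway that CD40 activates, rose by 0.73 (SE 0.207, edgeR adjusted p = 0.0141), from 7.21, 5.80 and 5.20 CPM to 8.63, 13.4 and 8.32 CPM; Valine 1, at 8.48 CPM, lay within the Val+PA range. Nrp2, a co-receptor for semaphorins and vascular growth factors, rose by 0.49, from 239, 229 and 184 CPM in Control to 313, 323 and 280 CPM in Val+PA, with 248, 247 and 236 CPM in Valine. The junction protein gene F11r rose by 0.48, the aminopeptidase gene Anpep by 0.70 and the receptor kinase gene Flt3 by 1.19, the last from below 1 CPM in every Control well. Defining markers of immune cells were near absent beside these rises: Itgam had no count in any library, and 3 of the 8 immune markers were tested. The summed level of these 3 was 2.22 to 3.65 CPM in Control, 5.68 to 6.69 CPM in Valine and 5.96 to 7.46 CPM in Val+PA. Of the 3, 1 was called higher and 1 lower in Val+PA (33.3% each way), beside 1 and 1 in Valine. Over all genes tested the Val+PA shares were 20.4% higher and 18.8% lower.

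Genes of the matrix and of secreted factors were called in both directions. Timp3, a matrix-bound inhibitor of metalloproteinases, measured 292, 272 and 235 CPM in Control, 307, 299 and 299 CPM in Valine and 416, 364 and 384 CPM in Val+PA, a log2 rise of 0.54 (SE 0.103, edgeR adjusted p = 0.00128). Here Val+PA 1 and not Val+PA 2 was the highest well. Tsku, a secreted proteoglycan that binds growth factors, rose by 0.49 and had a Valine change of -0.04. Igfbp3, which binds insulin-like growth factors, fell by 0.65, from 6.06, 7.44 and 6.36 CPM in Control and 5.60, 5.58 and 6.21 CPM in Valine to 3.72, 5.00 and 4.02 CPM in Val+PA. Hs6st2, which sulfates heparan chains, fell by 1.02 and stood at -0.04 in Valine, and the proprotein convertase gene Pcsk6 fell by 0.70.

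**Figure D3:**
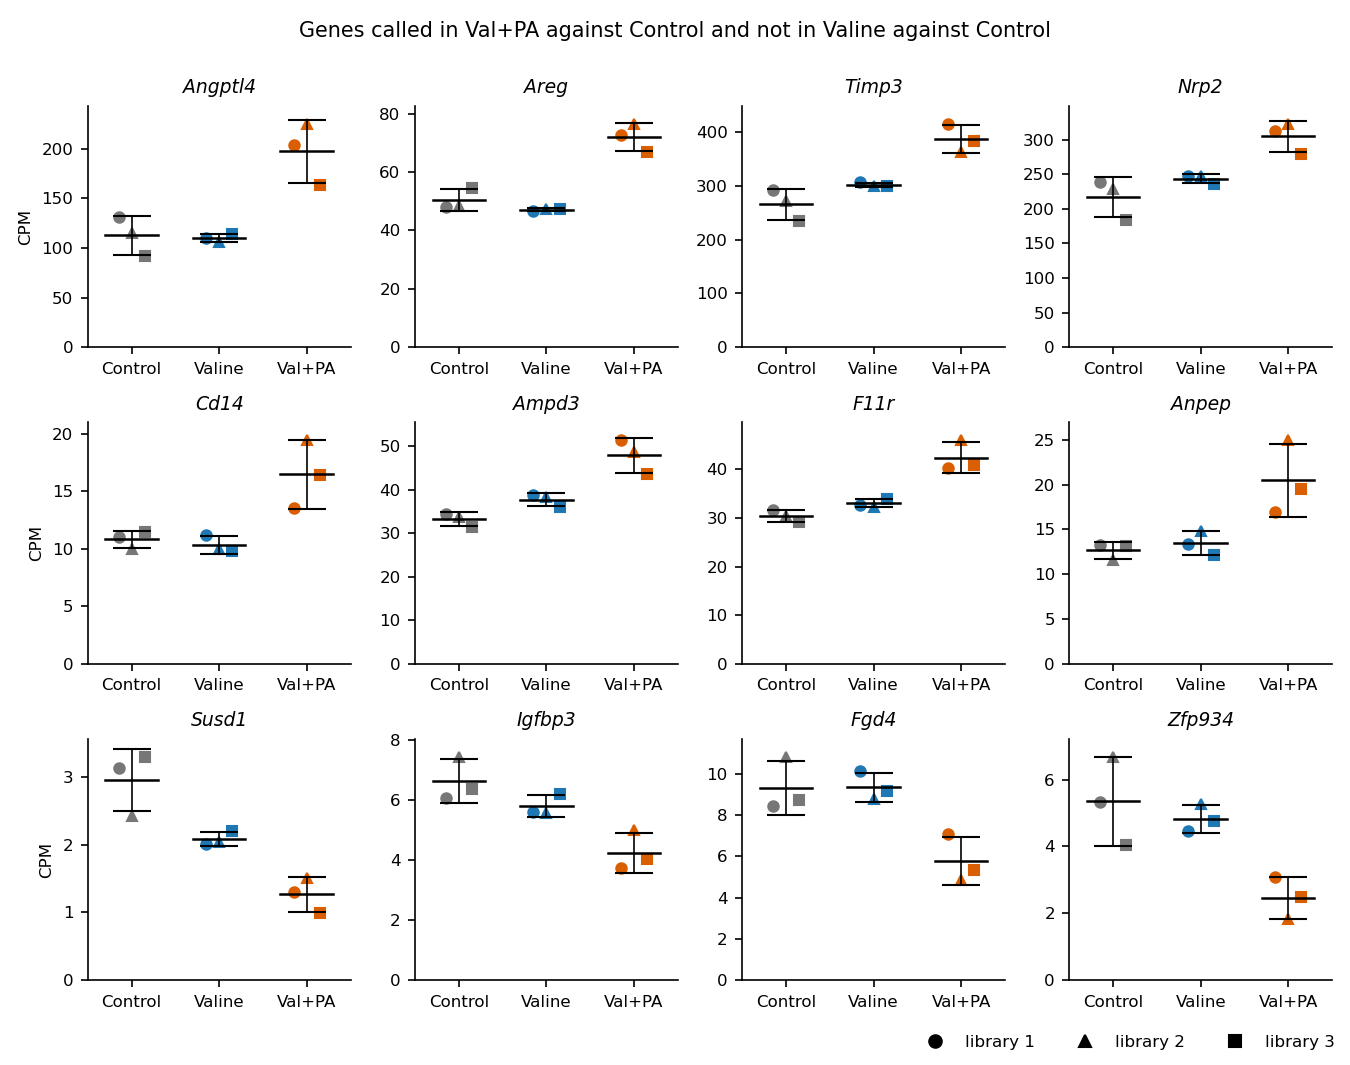
Level in CPM of 12 genes in each of the 9 libraries, with the group mean as a bar and the SD as a whisker; circles, triangles and squares mark libraries 1, 2 and 3 of a group. Angptl4, Areg, Timp3, Nrp2, Cd14, Ampd3, F11r and Anpep are higher in all 3 Val+PA wells than in the other 6, and Susd1, Igfbp3, Fgd4 and Zfp934 are lower.

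Enzymes, transporters and signalling genes completed the set. Ampd3, an AMP deaminase of the purine nucleotide cycle, rose by 0.53, from 34.4, 33.7 and 31.3 CPM in Control and 38.7, 38.2 and 35.9 CPM in Valine to 51.4, 48.7 and 43.6 CPM in Val+PA. Slc38a7, a lysosomal glutamine transporter, rose by 0.46 from 34.3, 32.2 and 35.6 CPM to 41.9, 55.2 and 42.9 CPM, while Valine remained at 34.6, 35.2 and 34.9 CPM. Rgs3 and Rgs16 both encode proteins that switch off G protein signals; Rgs3 rose by 0.53 and Rgs16 fell by 0.79. Fgd4, an exchange factor of the small GTPase CDC42, measured 8.43, 10.8 and 8.70 CPM in Control, 10.1, 8.75 and 9.15 CPM in Valine and 7.06, 4.84 and 5.35 CPM in Val+PA, a log2 change of -0.70 in Val+PA and 0.00 in Valine. The zinc finger gene Zfp934 fell by 1.12, from 5.32, 6.68 and 4.03 CPM to 3.09, 1.83 and 2.47 CPM, with 4.46, 5.26 and 4.75 CPM in Valine; it belongs to a family of like copies, so its reads are uncertain. Susd1 fell by 1.22 from 3.14, 2.43 and 3.30 CPM to 1.30, 1.51 and 0.989 CPM, and Valine lay between at 2.01, 2.04 and 2.198 CPM. Sec61b, a subunit of the channel that passes new proteins into the endoplasmic reticulum, fell by 0.43, Snrpf, a core protein of the spliceosome, by 0.97 and Higd1a, a small inner mitochondrial membrane protein, by 0.57.

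Larger changes were found among the genes called in Val+PA and not in Valine that averaged at least 2 CPM and did not overlap Control, and these were less even across wells. Within those limits Igfbp7, another secreted binder of insulin-like growth factors, had the largest rise, 1.23 on the log2 scale (SE 0.259, edgeR adjusted p = 0.00256). Its wells held 39.0, 32.6 and 66.7 CPM in Control, 55.7, 56.2 and 60.5 CPM in Valine and 75.2, 144 and 105 CPM in Val+PA, so Control 3 was the highest Control well and Val+PA 2 the highest Val+PA well. The same order held for Acaa1a, the peroxisomal thiolase that completes each round of peroxisomal beta-oxidation, with 46.7, 40.8 and 70.2 CPM in Control and 80.0, 155 and 113 CPM in Val+PA, and for Fuk, the fucose kinase, with 19.04, 17.8 and 30.5 CPM in Control and 38.0, 67.0 and 49.2 CPM in Val+PA. Acaa1a rose by 1.14 and Fuk by 1.199. Without Control 3 and Val+PA 2 the log2 rises of Igfbp7, Acaa1a and Fuk were 1.33, 1.14 and 1.25. Without Val+PA 2 they were 0.97, 0.88 and 0.97. All were still called against Control in these fits, which does not ask whether they stayed uncalled in Valine. Valine held 76.3, 73.0 and 81.8 CPM of Acaa1a, a log2 change of 0.55 with an edgeR adjusted p of 0.0711. The falls were led by Pnp2, a purine phosphorylase, at -2.31 (-1.62 without Control 3 and Val+PA 2), with Lsm5, an RNA-binding protein of the spliceosome and of mRNA decay, at -1.41, and Ndufa12, a subunit of respiratory complex I, at -1.25. Pnp2 has a near-identical neighbour and its split of reads is uncertain. Spc25, a kinetochore protein, fell by 1.083, from 54.8, 62.9 and 54.0 CPM to 35.5, 16.1 and 29.2 CPM, with Val+PA 2 the lowest, and by 0.86 without Control 3 and Val+PA 2. The calls of Ndufa12, Acvr2b, Depdc1a and Dusp2 each depended on single libraries: the edgeR adjusted p was 0.114 for Ndufa12 without Control 1, 0.0668 for Acvr2b without Control 2, 0.0809 for Depdc1a without Control 2 and 0.0617 for Dusp2 without Control 2.

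Lipid genes were next taken by list, whatever their response. Of 28 PPAR-responsive genes tested, 10 rose and 5 fell in Val+PA (35.7% and 17.9%, beside 20.4% and 18.8% over all genes tested). The median log2 change was 0.34, beside -0.002 over all genes tested, and 9 rose and 6 fell in Valine. Angptl4 and Acot1 were called in Val+PA and not in Valine. Plin4, a coat protein of lipid droplets, showed the widest range: 40.3, 40.4 and 44.7 CPM in Control, 11.8, 13.1 and 13.5 CPM in Valine and 19.1, 26.6 and 20.03 CPM in Val+PA. It fell against Control by 0.93 (SE 0.137, edgeR adjusted p = 0.00022), and the 3 groups did not overlap. Pdk4, the kinase that spares glucose by shutting pyruvate dehydrogenase, had the same order with 36.8, 38.0 and 32.9 CPM in Control, 20.4, 16.5 and 16.4 CPM in Valine and 26.2, 21.7 and 26.3 CPM in Val+PA, a fall of 0.54 against Control. Plin2, the droplet coat protein of most cell types, was at 758, 735 and 648 CPM in Control, 531, 536 and 513 CPM in Valine and 733, 697 and 566 CPM in Val+PA. It fell in Valine by 0.44 and was not called in Val+PA, with a log2 difference of -0.10 from Control (edgeR adjusted p = 0.505). Against Valine the log2 differences were 0.78 for Plin4, 0.48 for Pdk4 and 0.34 for Plin2, none of them called.

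The other lipid lists are given by process, beside 20.4% higher and 18.8% lower over all genes tested. In fatty acid oxidation 17 of 39 genes rose and 3 fell (43.6% and 7.69%, median 0.34), beside 14 and 2 in Valine (median 0.32). The rises called in Val+PA and not in Valine include Acaa1a, Acads, Acot1 and Hsd17b4. Acaa1a and Hsd17b4 act in peroxisomes. Cpt1a, which passes long chains into mitochondria, was at 82.3 CPM ± 19.1 (SD, n = 3) in Control and 106 CPM ± 12.5 (SD, n = 3) in Val+PA and was not called (edgeR adjusted p = 0.0846). In cholesterol synthesis and uptake 24 of 35 fell and 6 rose (median -0.85), beside 28 and 4 in Valine. Insig1, which holds back the transcription factor SREBP, fell from 828 CPM ± 46.1 to 351 CPM ± 12.1 (SD, n = 3 each), and Idi1, an enzyme of isoprenoid synthesis, from 805 CPM ± 58.2 to 197 CPM ± 55.3 (SD, n = 3 each). Nr1h2, a receptor for oxysterols, and Npc2, which hands cholesterol out of lysosomes, were higher than Control by 0.49 and 0.32, calls made in Val+PA and not in Valine, and Npc2 lost its call without Control 2 (edgeR adjusted p = 0.0546). In fatty acid synthesis 3 of 25 rose and 6 fell (12% and 24%, median -0.12), with Fasn, the synthase of palmitate itself, falling from 541 CPM ± 103 to 234 CPM ± 79.2 (SD, n = 3 each) beside 191 CPM in Valine. In triglyceride synthesis and lipid droplets 9 of 30 rose and 7 fell (30% and 23.3%). Among 31 ceramide and sphingolipid genes 3 rose and 6 fell (9.68% and 19.4%), with Cers1 the rise and Degs2 the fall called in Val+PA and not in Valine; both lost the call without Control 2 and in other alternatives. Without Control 3 and Val+PA 2 the falls numbered 11 in fatty acid synthesis and 10 in the ceramide list, which then had 7 rises. Pparg did not differ from Control beyond its spread (13.96 CPM ± 0.854 and 15.2 CPM ± 1.05, SD, n = 3 each; edgeR adjusted p = 0.446). Cd36, the fatty acid carrier of muscle membranes, rose from 0.288 to 0.935 CPM, and Ppargc1a, a coactivator of mitochondrial genes, from 1.45 to 6.69 CPM; in Valine they were at 1.21 and 7.58 CPM.

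**Figure D4:**
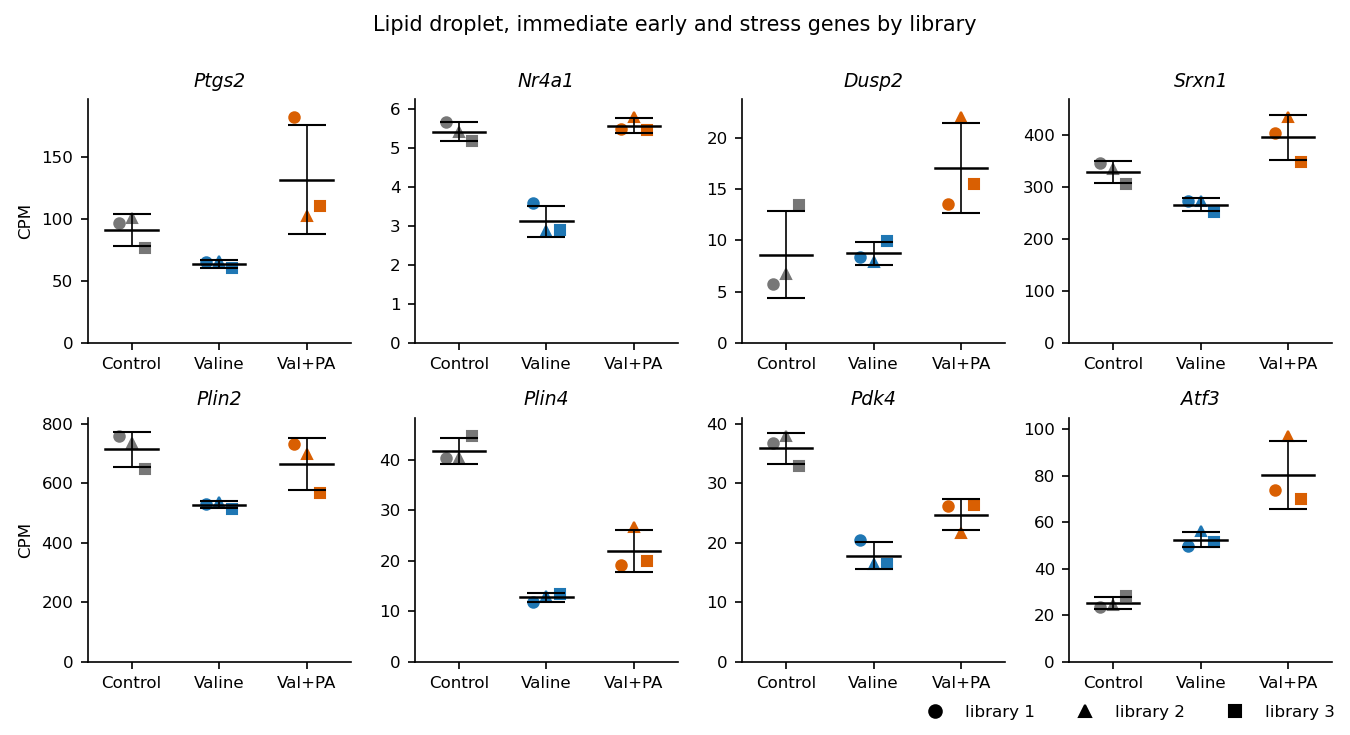
Level in CPM of Ptgs2, Nr4a1, Dusp2, Srxn1, Plin2, Plin4, Pdk4 and Atf3 in each of the 9 libraries, with the group mean as a bar and the SD as a whisker. Ptgs2, Nr4a1, Srxn1, Plin2, Plin4 and Pdk4 are lower in every Valine well than in every Control well and higher in every Val+PA well than in every Valine well, while Atf3 climbs from Control to Valine to Val+PA.

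Among early-response and inflammatory genes, the Valine and Val+PA wells of Ptgs2, Nr4a1 and Dusp2 did not overlap. Ptgs2, the inducible cyclooxygenase that makes prostaglandins, was at 96.3, 101 and 76.7 CPM in Control, 65.2, 65.7 and 60.0 CPM in Valine and 182, 102 and 111 CPM in Val+PA. It fell in Valine by 0.52 and rose in Val+PA by 0.53 (SE 0.191, edgeR adjusted p = 0.0463), and the rise over Control rests on Val+PA 1: without that well the log2 difference was 0.22 with an adjusted p of 0.209. Its call was lost in 10 of the alternatives. Nr4a1, an orphan nuclear receptor induced within minutes of many stimuli, was at 5.68, 5.41 and 5.20 CPM in Control, 3.59, 2.88 and 2.90 CPM in Valine and 5.48, 5.80 and 5.47 CPM in Val+PA. It fell in Valine by 0.80 and stood at 0.04 from Control in Val+PA (edgeR adjusted p = 0.852), with a log2 difference of 0.84 between the treated groups. Dusp2, a nuclear phosphatase that turns off ERK, rose in Val+PA by 0.99, from 5.71, 6.68 and 13.5 CPM in Control to 13.6, 22.0 and 15.5 CPM, with Control 3 just below the lowest Val+PA well. It was not called in Valine, at 8.40, 7.85 and 9.97 CPM. With all 9 libraries edgeR called none of Ptgs2, Nr4a1 and Dusp2 between Val+PA and Valine, where the smallest adjusted p of any gene was 0.168.

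Proximal promoters of these genes and of Areg were read from RefSeq (GRCm38.p6, 250 bases before to 50 bases after the start) because each holds the core of the cyclic AMP response element, TGACG or its complement CGTCA, the site through which many early-response genes are known to be switched on. Capitals mark that core, and all 4 lie on the plus strand, at chr5:91139349-91139648 for Areg, chr2:127335909-127336208 for Dusp2, chr15:101266596-101266895 for Nr4a1 and chr1:150099781-150100080 for Ptgs2.
Areg: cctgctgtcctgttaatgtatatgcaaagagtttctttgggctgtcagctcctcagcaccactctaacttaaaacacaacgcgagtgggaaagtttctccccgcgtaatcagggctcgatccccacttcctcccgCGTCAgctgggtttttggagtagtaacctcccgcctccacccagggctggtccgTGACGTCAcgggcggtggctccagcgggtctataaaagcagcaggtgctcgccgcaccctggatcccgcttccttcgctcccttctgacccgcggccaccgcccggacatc
Dusp2: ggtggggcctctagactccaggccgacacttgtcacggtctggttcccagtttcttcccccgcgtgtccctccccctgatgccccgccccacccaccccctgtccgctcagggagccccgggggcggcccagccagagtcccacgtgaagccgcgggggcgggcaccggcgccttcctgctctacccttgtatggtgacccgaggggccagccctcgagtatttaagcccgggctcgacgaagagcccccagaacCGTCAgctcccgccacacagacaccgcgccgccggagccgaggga
Nr4a1: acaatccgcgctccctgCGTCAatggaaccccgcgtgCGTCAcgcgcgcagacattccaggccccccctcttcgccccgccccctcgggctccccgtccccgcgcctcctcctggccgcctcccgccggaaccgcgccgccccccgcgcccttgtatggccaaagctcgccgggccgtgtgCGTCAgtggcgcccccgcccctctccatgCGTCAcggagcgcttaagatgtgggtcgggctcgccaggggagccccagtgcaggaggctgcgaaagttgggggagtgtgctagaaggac
Ptgs2: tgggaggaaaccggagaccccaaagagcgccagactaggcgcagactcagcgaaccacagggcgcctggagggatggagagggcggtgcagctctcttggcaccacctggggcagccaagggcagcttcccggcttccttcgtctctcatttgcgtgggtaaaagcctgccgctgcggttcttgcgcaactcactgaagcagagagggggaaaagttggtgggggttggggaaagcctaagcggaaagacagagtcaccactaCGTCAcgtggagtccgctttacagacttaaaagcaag
Areg holds 3 matches, 2 of which overlap as the full palindrome TGACGTCA, Nr4a1 holds 4 separate ones, and Dusp2 and Ptgs2 hold 1 each. The core is common: on either strand it was found in 33.6% of the 11275 tested genes with a promoter in the table, in 36.3% of 487 called higher in Val+PA and not in Valine and in 32.7% of 401 called lower. The full TGACGTCA, which contains the core, was in 3.4%, 3.5% and 3.5%. The AP-1 site TGANTCA was in 6.8%, 7.8% and 6.5% and the nuclear receptor half-site AGGTCA in 15.3%, 15% and 16%. The GC box GGGCGG was in 65.0% of all, 74.7% of the genes called higher and 64.8% of those called lower, and CCAAT in 42.9%, 38.4% and 47.6%. Median promoter GC content was 60.0%, 61.3% and 60.3%. These are matches of letters and not sites of binding. The 4 promoters were printed because they hold the core, so its presence in them is no result. The single matches of Dusp2 and Ptgs2 lie after the start annotated in RefSeq, from positions 6 and 14 with that start counted as 1. All matches of Areg and Nr4a1 lie before the annotated start. Where transcription started in these cells was not tested.

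Among 41 immediate early and serum response genes 6 rose and 18 fell in Val+PA (median -0.38), beside 4 and 26 in Valine (median -0.67). Atf3, a stress-induced transcription factor, rose most, from 23.4, 24.2 and 28.3 CPM in Control to 73.8, 97.2 and 70.1 CPM in Val+PA, with 50.02, 56.2 and 51.5 CPM in Valine. The log2 change was 1.67 (SE 0.139, edgeR adjusted p = 2.62e-06), and the groups did not overlap. Fos fell most, from 3.03 CPM ± 0.344 (SD, n = 3) to 0.475 CPM ± 0.212 (SD, n = 3), beside 0.470 CPM in Valine. Of 43 genes of NF-kappaB, cytokines and prostaglandins 12 rose and 12 fell (27.9% each way, beside 20.4% and 18.8% over all genes tested). In Valine 6 rose and 14 fell. Those called higher in Val+PA and not in Valine were Csf1, Il11, Nfkbie, Ptgs1 and Relb, and those called lower were the chemokine genes Cxcl1 and Cxcl5; the calls of Il11 and Cxcl5 were lost when Control 3, among others, was left out. Cxcl1, a neutrophil attractant, went from 1.83, 2.31 and 1.53 CPM in Control to 1.14, 0.480 and 0.773 CPM. Il33, an alarmin cytokine, fell from 62.7 CPM ± 8.34 to 16.5 CPM ± 4.19 (SD, n = 3 each), beside 26.9 CPM in Valine.

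Stress pathways differed in direction, and their shares stand beside 20.4% higher and 18.8% lower over all genes tested. The integrated stress response is the programme that ATF4 drives when amino acids are short or proteins misfold. Of its 40 genes 27 rose and 0 fell by edgeR (67.5% and 0%, median 0.51), beside 25 rises in Valine. None was lower at an unadjusted p below 0.05 (0 genes), and DESeq2 and limma-voom also called 27 and 0. Aars, Atf4, Psat1 and Psph were called in Val+PA and not in Valine. Psph, the last enzyme of serine synthesis, rose by 0.72 (SE 0.131, edgeR adjusted p = 0.00101), from 81.5, 82.7 and 111 CPM in Control to 139, 160 and 153 CPM, with 105, 119 and 124 CPM in Valine at an adjusted p of 0.0571. Ddit3, a proapoptotic factor of prolonged stress, rose by 0.84, and Fgf21, a stress hormone, from 0.0838 CPM in Control to 3.55 CPM, beside 3.01 CPM in Valine. Chaperones of the endoplasmic reticulum and its unfolded protein response went the other way. There 5 of 36 genes were higher and 19 lower (13.9% and 52.8%, median -0.34), beside 5 and 18 in Valine. In that list Manf, a secreted survival factor, fell by 1.00 and the sensor gene Atf6 rose by 0.74. Among 37 NRF2 and antioxidant genes 4 rose and 16 fell (10.8% and 43.2%), beside 4 and 19 in Valine. Srxn1, which repairs oxidised peroxiredoxins, was at 346, 334 and 305 CPM in Control, 274, 272 and 251.4 CPM in Valine and 403, 434 and 349 CPM in Val+PA; it fell in Valine by 0.31, and its Val+PA difference of 0.27 was not called (edgeR adjusted p = 0.0606) although every Val+PA well was above every Control well. Hmox1, which degrades haem, fell by 0.74. In the heat shock list 24 of 38 fell and 2 rose (63.2% and 5.26%), beside 28 and 1 in Valine. Of the proteasome subunits 18 of 41 fell and 1 rose (43.9% and 2.44%), beside 23 and 1 in Valine. Without Control 3 and Val+PA 2 the rises numbered 9 in the endoplasmic reticulum list and 7 in the NRF2 list.

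Autophagy and lysosome genes, which the study's title names, are given next with the shares over all genes tested, 20.4% higher and 18.8% lower, as background. Of 46 autophagy machinery genes 14 rose and 6 fell (30.4% and 13.0%, median 0.20), beside 15 and 9 in Valine; Atg4b, Becn1 and Wipi2 were called higher and Atg3 and Snap29 lower in Val+PA and not in Valine. Becn1, which starts the membrane that becomes an autophagosome, rose by 0.35 and Wipi2, which marks it, by 0.33, while Atg3, the enzyme that attaches LC3 to lipid, fell by 0.52. The calls of Becn1, Wipi2 and Snap29 were lost without Control 2, and the counts of the list went to 22 and 10 without Control 3 and Val+PA 2. The LC3 gene Map1lc3b was not called at 147 CPM ± 8.80 in starved and 172 CPM ± 7.27 in Val+PA wells (SD, n = 3 each; edgeR adjusted p = 0.0702), and its relative Map1lc3a rose by 0.88. Sqstm1, the cargo receptor p62, was at 1045 CPM ± 41.2, 851 CPM ± 50.4 and 1042 CPM ± 162 in Control, Valine and Val+PA (SD, n = 3 each; edgeR adjusted p = 0.986 against Control). Of 23 receptors of autophagy and mitophagy 8 rose and 4 fell (34.8% and 17.4%). Of 52 lysosome genes 18 rose and 4 fell (34.6% and 7.69%), beside 16 and 13 in Valine, with the cathepsin gene Ctsf rising from 3.96 to 14.8 CPM; without Control 3 and Val+PA 2 the falls numbered 9.

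**Figure D5:**
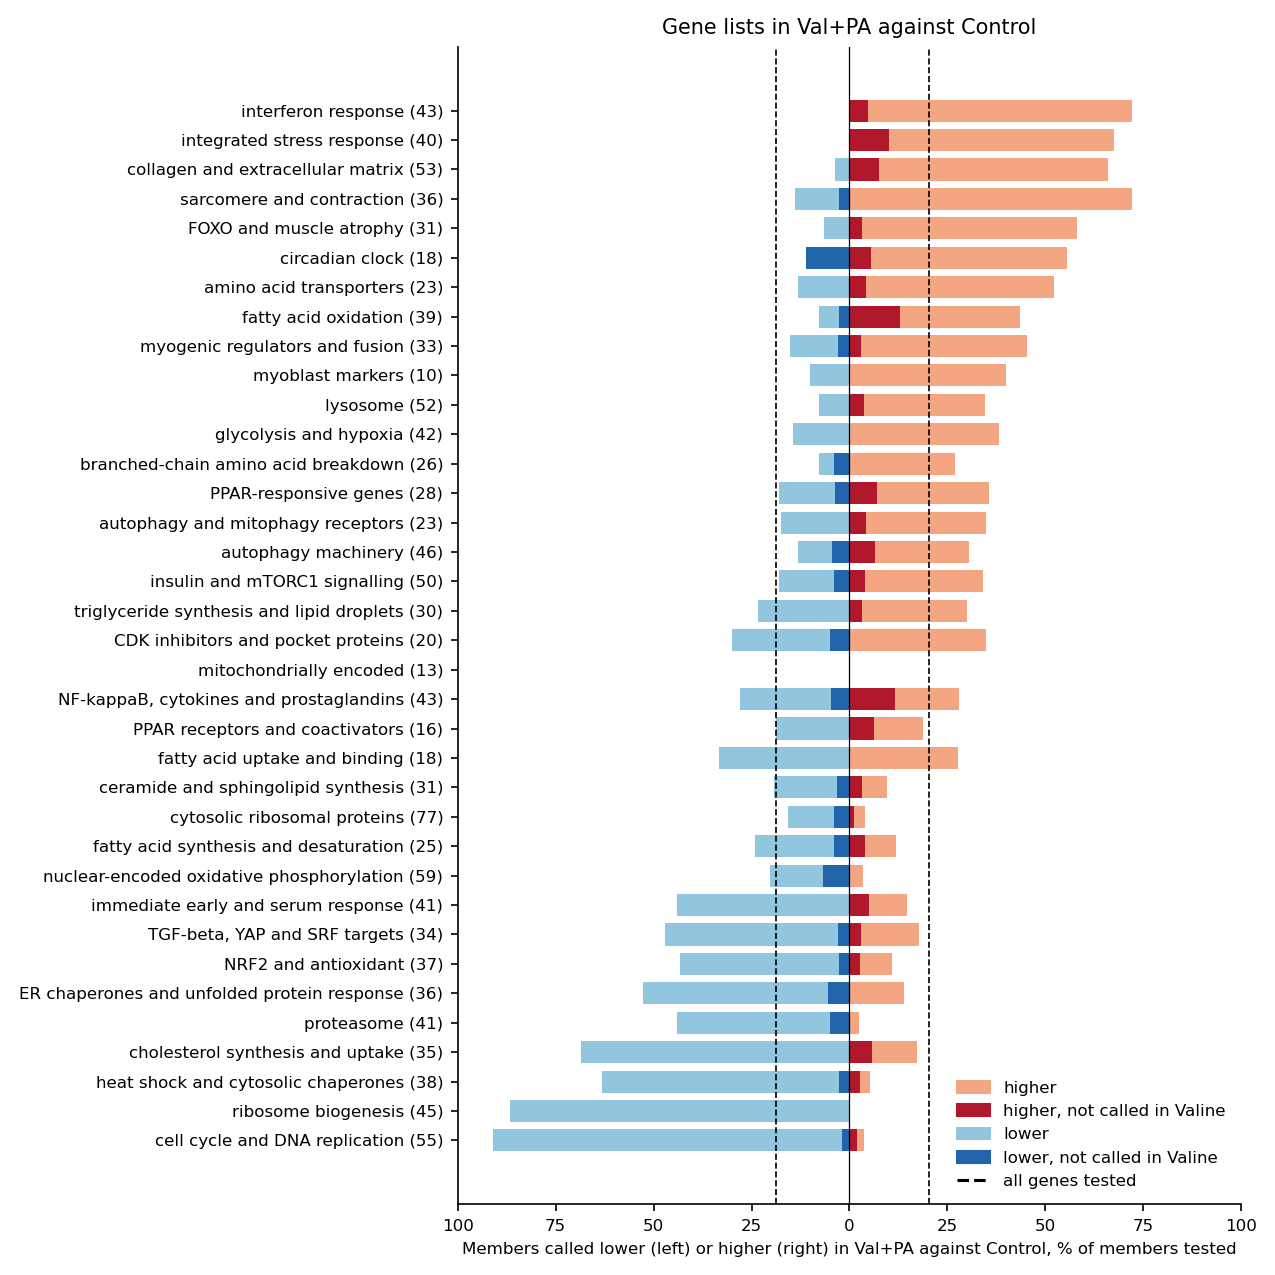
Share of the tested members of each gene list that were called higher (right) or lower (left) in Val+PA against Control, with the members not called in Valine in the dark shade; dashed lines give the shares over all genes tested, 20.4% and 18.8%. Beside marker lists, the longest bars to the right are sarcomere (72.2%), interferon (72.1%), integrated stress (67.5%) and matrix (66.0%), and to the left cell cycle (90.9%), ribosome biogenesis (86.7%), cholesterol (68.6%) and heat shock (63.2%).

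Growth and muscle programmes gave some of the highest shares of called genes. Other lists given here lay nearer to the shares over all genes tested, 20.4% higher and 18.8% lower. Of 55 cell cycle genes 50 fell and 2 rose (median -1.45, beside -1.20 in Valine), with the cyclin gene Ccne2 going from 96.3 to 8.61 CPM and Ccnd1 from 285 to 131 CPM. Of 45 ribosome biogenesis genes 39 fell and 0 rose by edgeR, DESeq2 and limma-voom, with 0 higher at an unadjusted p below 0.05. Of 36 sarcomere genes 26 rose and 5 fell (median 1.11), and of 33 myogenic regulators and fusion genes 15 rose and 5 fell; Myog, which drives terminal differentiation, went from 0.487 CPM ± 0.164 to 5.29 CPM ± 1.21 and the embryonic myosin gene Myh3 from 0.997 CPM ± 0.329 to 8.23 CPM ± 3.55 (SD, n = 3 each). Igf1, a growth factor for muscle, rose from 2.15 to 25.9 CPM, beside 34.4 CPM in Valine. Of 43 interferon response genes 31 rose and 0 fell by edgeR, DESeq2 and limma-voom (median 1.15), with 0 lower at an unadjusted p below 0.05, beside 34 rises in Valine. Of 31 FOXO and atrophy genes 18 rose and 2 fell (58.1% and 6.45%). Of 26 genes that break down branched-chain amino acids, the class valine belongs to, 7 rose and 2 fell (26.9% and 7.69%). Of 50 genes of insulin and mTORC1 signalling 17 rose and 9 fell (34% and 18%). Of 23 amino acid transporters 12 rose and 3 fell (52.2% and 13%), with Slc1a3, a glutamate carrier, rising from 9.62 to 119 CPM. Of 42 glycolysis and hypoxia genes 16 rose and 6 fell (38.1% and 14.3%), or 20 and 14 without Control 3 and Val+PA 2. Of 18 clock genes 10 rose and 2 fell (55.6% and 11.1%).

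Of 53 collagen and matrix genes 35 rose and 2 fell (66% and 3.77%, median 0.94), beside 32 and 3 in Valine (median 0.65). Over all genes tested 20.4% were higher and 18.8% lower in Val+PA. Col1a1, Col5a3, Thbs2 and Timp3 were called in Val+PA and not in Valine. Col1a1, the main chain of type I collagen, overlapped Control (13.5 CPM ± 8.26 and 34.6 CPM ± 16.8, SD, n = 3 each), and its call was lost without Control 1, Control 2 or Val+PA 2. Col1a1 is also a marker of fibroblasts and fibro-adipogenic progenitors, so that marker list and the matrix list are not independent. Of these markers 8 of 9 rose (88.9%, median 1.94), beside 7 in Valine (median 1.86). Their summed level was 1200 to 1780 CPM in Control, 3410 to 3520 CPM in Valine and 3140 to 4340 CPM in Val+PA. Their part in the result was not tested. Among these Pdgfra, at 9.55, 8.63 and 9.30 CPM in Control, was at 10.2, 11.4 and 10.6 CPM in Val+PA and was the member not called. In bulk RNA a change in the number of cells of a type and in RNA per cell cannot be told apart. Of the 10 adipocyte markers Adipoq, Lep, Retn and Cidea had no count in any library, and 2 were tested. The sum of these 2 was 18.8 to 32.0 CPM in Control, 85.3 to 91.7 CPM in Valine and 62.2 to 89.7 CPM in Val+PA. It was nearly all Lpl, which muscle also expresses. Of the 8 endothelial markers 4 were tested. These summed to 3.33 to 3.87 CPM in Control, 8.53 to 10.4 CPM in Valine and 9.15 to 14.7 CPM in Val+PA.

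Counts of called mitochondrial and ribosomal protein genes moved with the libraries used. Of 59 nuclear genes of oxidative phosphorylation 12 fell and 2 rose (20.3% and 3.39%, beside 18.8% lower and 20.4% higher over all genes tested). Without Control 3 and Val+PA 2 these were 19 and 8. Atp5f1, Cycs, Ndufa12 and Uqcrb were called lower in Val+PA and not in Valine; Cycs, the electron carrier cytochrome c, overlapped Control (147 CPM ± 53.1 and 70.3 CPM ± 33.6, SD, n = 3 each). Of the 13 genes of the mitochondrial genome 0 were called by edgeR, DESeq2 or limma-voom, and 1 was lower at an unadjusted p below 0.05 (median -0.29), beside 5 falls in Valine (median -1.13). Other edgeR fits called 1 rise and 5 falls there without a filter, 2 falls without Control 1, 2 rises and 1 fall without Control 3, and 3 rises and 1 fall without Control 3 and Val+PA 2. Of 77 cytosolic ribosomal protein genes 12 fell and 3 rose (15.6% and 3.9%), or 39 and 11 without Control 3 and Val+PA 2. Rps29 fell in Val+PA by 0.60 (SE 0.114, edgeR adjusted p = 0.0013) and was not called in Valine (edgeR adjusted p = 0.0585), from 49.95 CPM ± 5.89 (SD, n = 3) in Control and 40.9 CPM in Valine to 32.9 CPM ± 2.36 (SD, n = 3).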

How the data were processed

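RNA from 9 wells was sequenced as strand-specific paired-end libraries, per the labels' protocols. The submitters' processing notes name HISAT2, featureCounts, DESeq2 and GRCm38 and no version; how strand was treated in counting, and with which annotation, is not given in the sources used here. Whole-number read counts were deposited by the authors for 53700 Ensembl IDs, of which GENCODE M21 named 52147 (97.1%). Their normalized table was not used. Counts were fitted with edgeR 4.0.16 in R 4.3.3 (filterByExpr, TMM, quasi-likelihood, group means, all 9 libraries), with two-sided tests and Benjamini-Hochberg adjustment at 0.05 over 18415 genes; the method was tested on simulated data. SE is the absolute log2 change divided by the root of the F statistic. PCR duplicates carry no molecular identifiers, so depth covers counting error only.

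Members, lists and alternatives were chosen with earlier results of these data known. Named genes are the largest changes with non-overlapping groups and at least 2 CPM (10 each way among genes called in Val+PA and not in Valine, 5 each way overall), the leading called members of each list, a set of fixed genes, and 54 genes chosen after values were seen. Marker, cut-point and list members outside that rule were also chosen after values were seen. Alternatives were DESeq2 1.42.0, limma-voom (limma 3.58.1), upper-quartile and RLE factors, plain library size, other filters, 2 groups alone, a replicate block, a threshold of 0.01, leaving out each library or Control 3 with Val+PA 2 and, added after seeing the data, removing each library's GC trend. Some members of the lists are counted but not reported here by name.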

Additional observations from a re-analysis of the deposited data

How the results depend on the processing

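Genes called in Val+PA against Control numbered 3071 to 4011 higher and 2876 to 3852 lower when each library was left out, 4741 and 4621 without Control 3 and Val+PA 2, and 4192 and 4305 with the GC trend removed; under upper-quartile factors they were 4091 and 3126. Genes called in Val+PA and not in Valine numbered 272 higher and 191 lower with the 2 groups fitted alone, and 425 lower at a threshold of 0.01. Leaving out each library gave 427 to 917 higher and 374 to 868 lower, the lowest values without Val+PA 2. Val+PA against Valine called 186 genes with DESeq2, 763 without a filter, 604 without Control 3 and Val+PA 2 and 7 with the GC trend removed. The replicate block gave 3598 higher and 3337 lower, or 676 and 656 in Val+PA and not in Valine; of the list counts it moved the falls in fatty acid oxidation from 3 to 1 and in branched-chain amino acid breakdown from 2 to 1, and no other by over 1.5 times. Same-numbered wells came from different plates and their deviations correlated at -0.27 to 0.16, so the numbers do not pair the libraries. Differences from Control that were not called turned sign: Plin2 to 0.006 without Val+PA 3 (-0.175 to 0.006 over single libraries left out), Nr4a1 to -0.014 without Control 3 and Val+PA 2 and to -0.022 with the GC trend removed, Myod1 to -0.009 without Val+PA 2 (-0.009 to 0.333), and Sqstm1 to 0.044 under upper-quartile factors, 0.034 under library size, 0.014 without a filter, 0.023 without Control 1, 0 without Valine 1, 0.011 without Val+PA 1 and 0.103 without Val+PA 3 (-0.124 to 0.103). The cause was not tested. Of the 122 named genes called in Val+PA and not in Valine, 45 lost the call in at least 1 other fit at the 0.05 threshold.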

Other observations

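With Control 3 and Val+PA 2 left out, the 604 genes that Val+PA against Valine then called include several outside the account above, named after their values were seen. Grem1, a secreted antagonist of bone morphogenetic proteins, was at 64.8, 65.6 and 51.6 CPM in Control, 21.8, 22.2 and 22.2 CPM in Valine and 56.8, 33.3 and 44.0 CPM in Val+PA, so the Val+PA wells lay between the Control and Valine wells or within Control. Dusp4, a phosphatase of ERK, was at 344, 332 and 497 CPM in Control, 125, 126 and 122 CPM in Valine and 193, 281 and 213 CPM in Val+PA. Ereg, a growth factor related to Areg, was at 45.1, 51.0 and 47.6 CPM in Control, 17.6, 17.6 and 17.1 CPM in Valine and 36.6, 19.2 and 26.4 CPM in Val+PA. Ttn, the giant spring protein of the sarcomere, was at 464, 497 and 437 CPM in Control, 942, 928 and 917 CPM in Valine and 541, 657 and 662 CPM in Val+PA. With all 9 libraries none of the 4 was called between the treated groups, and edgeR gave an adjusted p of 0.168 for Grem1, 0.170 for Dusp4, 0.268 for Ereg and 0.168 for Ttn.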
